A study of Homo sapiens with 22 samples.

Results

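Expression of 9 enzymes of heme synthesis and breakdown was followed in maturing human erythroid cells that lacked histone H2A.X or the kinase BAZ1B. The members were chosen by gene symbol, namely ALAS1, ALAS2, ALAD, UROS, UROD, CPOX, PPOX, FECH and HMOX1, and all 9 were found among the 59087 gene names of both count tables. The list does not hold every enzyme of the pathway. RNA-Seq had been performed on HUDEP-2 cells, an erythroid progenitor line that is kept immortal by viral oncogenes under a doxycycline-inducible promoter. The H2A.X experiment compared 2 WT with 3 H2A.X KO samples and the BAZ1B experiment 3 WT with 3 BAZ1B KO samples, each at D0 in expansion medium and at D6 of maturation, which makes 22 libraries. Both KOs were homozygous CRISPR/Cas9 deletions in lines grown out after limiting dilution. The H2A.X deletion ran from before the start codon to just past the stop codon, and the BAZ1B deletion took out the first exon. SCF, erythropoietin and doxycycline were present at both days in all groups, dexamethasone only in the expansion medium, and plasma, heparin, holo-transferrin and insulin only in the differentiation medium, so day and medium cannot be told apart.

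Heme is built in a chain of enzyme steps that begins and ends in mitochondria and passes through the cytosol. The first step, which joins glycine and succinyl-CoA, is rate-limiting and is carried out by ALAS1 in most tissues and by the separate, X-linked ALAS2 in erythroid cells. In the last step FECH puts iron into protoporphyrin, and the heme that is made goes mainly into hemoglobin. HMOX1, the inducible heme oxygenase, opens the heme ring and releases iron, carbon monoxide and biliverdin.

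Libraries of the H2A.X experiment held 11910141 to 21013004 counts and those of the BAZ1B experiment 33199408 to 41273244. The biological coefficient of variation was 0.239 in the first and 0.0865 in the second, so small differences could be resolved only in the BAZ1B experiment. H2AFX, the gene for H2A.X, had 1575 and 1969 normalized counts in WT and 333, 787 and 760.1 in H2A.X KO at D0, and 1748 and 2390.0 against 308, 1050.0 and 799 at D6. The gene BAZ1B had 9913, 9822 and 9705 in WT and 6557, 8351 and 7348 in BAZ1B KO at D0, and 9134, 9429 and 9103 against 7037, 7376 and 6817 at D6, where reads from the exons outside the deletion still count. Both targeted genes were therefore lower in every KO library than in any WT library of the same day, without being at 0. Erythroid markers were present in all libraries, with a summed level of 6470 CPM (counts scaled to the effective library size) or more, while the defining macrophage markers CD163, MARCO and VSIG4 were at 0 in every group of both experiments. Other monocyte and macrophage markers were detected. LYZ, for example, was at 3.97 to 5.69 CPM in WT at D0 of the BAZ1B experiment and at 1.17 to 1.68 in H2A.X KO at D0. In the H2A.X experiment Redo is part of 5 of 6 KO column names and of no WT column name, and what it records cannot be told apart from genotype. There, the KO against WT difference also moved with transcript length across 12017 genes (Spearman's rho 0.544 at D0 and 0.601 at D6, a description across genes), which in the BAZ1B experiment it did not (rho -0.0301 and 0.0524). Values with a correction for length and GC content are therefore given for the H2A.X experiment.

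Adjusted p-values below are two-sided, from edgeR's quasi-likelihood test with the Benjamini-Hochberg method over all 13236 genes tested in the H2A.X or 13879 in the BAZ1B experiment, and a gene passed at an adjusted p below 0.05. All 9 members were tested in both. A normalized count is a read count scaled to a common library size within 1 experiment, fold changes are given as log2 values ± standard error, and other errors are SDs over the samples of a group. Because these are bulk RNA samples, fewer cells of a type and less RNA per cell cannot be told apart. Where libraries are said not to overlap between groups, the share of all tested genes without overlap was not counted.

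The enzymes differed widely in level. Per length, in CPM per kilobase of the canonical transcript, UROD was the highest in WT at D0 of the BAZ1B experiment (244 ± 4.37), followed by ALAS2 (123 ± 4.39) and UROS (74.7 ± 2.80). PPOX, CPOX, FECH and ALAD lay between 26.8 ± 0.391 and 49.1 ± 2.93, where the libraries of neighbouring enzymes were close to each other. ALAS1 (13.9 ± 0.159) and HMOX1 (4.88 ± 0.182) were the lowest. At D6 the order began with ALAS2 (981 ± 109.7), ahead of UROD (626 ± 38.3), and HMOX1 was again last (1.55 ± 0.493). Erythroid ALAS2 and housekeeping ALAS1 thus stood far apart on the same step of the pathway at both days. The place of FECH rests on its canonical transcript of 7689 bases, the longest of the members. In normalized counts at D0, FECH (mean 10603.5) lay above ALAS2 (8956) and near UROD (10933). Which transcripts were present was not tested.

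In BAZ1B experiment WT cells, all 8 synthesis enzymes rose from D0 to D6 and HMOX1 fell. The background was broad, since 33.5% of all tested genes were higher at D6 and 35.4% were lower in this comparison. The median log2 change over the 9 members was 1.6, against -0.02 over all tested genes.

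ALAS2 (chrX:55009055-55030977, minus strand, hg38), the erythroid first step, had 8825, 9320.0 and 8722 normalized counts at D0 and 68914, 65169 and 80508 at D6 in WT. This rise of 7.99-fold (log2 3.00 ± 0.13, adjusted p = 6.26e-10) was the largest among the members. ALAS1 (chr3:52198086-52214327, plus strand), the first step of other tissues, went from 1232, 1258 and 1235 to 1934, 1698 and 1964. It passed the test with the smallest rise of the 8 synthesis enzymes (log2 0.59 ± 0.08, adjusted p = 1.54e-05). In neither gene did the D0 and D6 libraries overlap.

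ALAD (chr9:113386312-113401290, minus strand), which joins aminolevulinate units into porphobilinogen, had 3106, 3167 and 3196 at D0 and 13409, 12674 and 15493 at D6 (log2 2.13 ± 0.08). UROS (chr10:125784980-125823258, minus strand), which closes the uroporphyrinogen ring, had 3823, 3835 and 3586 and 11109, 10730.5 and 12357 (log2 1.6 ± 0.07). UROD (chr1:45010950-45015575, plus strand), which trims the ring's acetate side chains, had 10728, 11117 and 10954 and 27380.4, 26790.5 and 30012 (log2 1.36 ± 0.05). These 3 cytosolic steps were each higher in every D6 library than in any D0 library, with ALAD rising the most.

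CPOX (chr3:98579446-98593648, minus strand), the mitochondrial oxidase that acts on coproporphyrinogen, had 4057, 4000.4 and 4224 at D0 and 16184, 14041 and 16013 at D6 (log2 1.91 ± 0.08). PPOX (chr1:161166056-161178013, plus strand), which makes protoporphyrin, had 3029, 3157 and 3405 and 7829, 7745 and 9078 (log2 1.36 ± 0.08). FECH (chr18:57544377-57586732, minus strand), the iron-inserting enzyme, had 10783, 10457 and 10569.7 and 45825, 43437 and 48679.8 (log2 2.12 ± 0.06). The enzymes of the last mitochondrial stretch therefore rose too, FECH the most and PPOX the least. PPOX shares 23.7% of its exon bases with B4GALT3 on the opposite strand and UROD 9.3% with HECTD3. Since the sources differ on whether the library kit kept the strand and do not state how strand was counted, reads of such partners cannot be told apart. CPOX shares 5.2% of its exon bases with an unnamed protein-coding gene on the same strand, where strand cannot separate reads.

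HMOX1 (chr22:35380361-35394214, plus strand) moved the other way. Its WT libraries had 297, 277 and 282 normalized counts at D0 and 124, 76.9 and 71.5 at D6, a 3.14-fold fall (log2 -1.65 ± 0.27, adjusted p = 0.000122). At D6 these were 111, 68 and 71 raw reads, so the level was low but measured. HMOX1 is also used by macrophages, and the 8 macrophage and monocyte markers summed to 4.45 to 6.42 CPM in WT at D0 and 0.241 to 0.349 at D6, while the 9 mast cell and eosinophil markers fell from a range of 467 to 508 to one of 30.0 to 40.8, with CLC and FCER1A at 0 in WT on both days. Their part in the fall of HMOX1 was not tested.

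**Figure D1:**
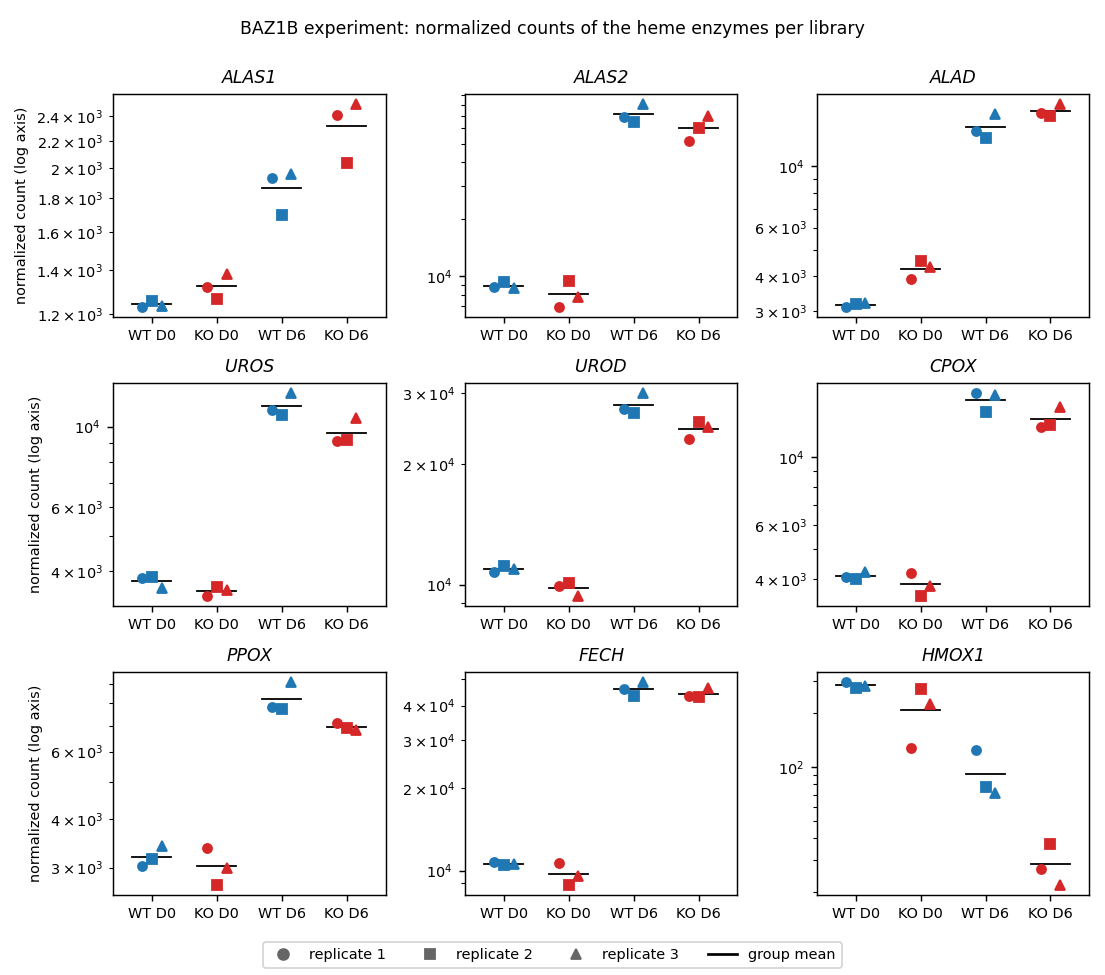
Normalized counts of the 9 enzymes in the 12 libraries of the BAZ1B experiment, on log axes that differ between panels. Blue marks are WT and red marks KO, the shape gives the replicate and the line the group mean. The 8 synthesis enzymes sit higher at D6 than at D0 in both genotypes, and HMOX1 lower.

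The sequences just before the start sites of ALAS2, CPOX and ALAS1 are shown because these genes rose by very different amounts on maturation and because GATA1 and KLF1, erythroid transcription factors that bind GATA and CACCC motifs, are known to act on heme genes. RefSeq promoter windows (GRCh38.p14) were found for 7 of the 9 members and not for UROS and HMOX1. Each line gives the 250 bases before the start, with motif words of either strand in capitals. The GATA words searched were AGATAA and AGATAG, as well as TGATAA and also TGATAG. The other motif word was CACCC.
ALAS2 (chrX:55030978-55031227, minus strand): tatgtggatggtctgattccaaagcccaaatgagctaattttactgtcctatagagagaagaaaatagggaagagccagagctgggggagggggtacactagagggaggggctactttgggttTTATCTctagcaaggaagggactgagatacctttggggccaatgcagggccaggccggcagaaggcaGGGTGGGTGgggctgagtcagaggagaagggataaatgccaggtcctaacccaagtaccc
CPOX (chr3:98593612-98593861, minus strand): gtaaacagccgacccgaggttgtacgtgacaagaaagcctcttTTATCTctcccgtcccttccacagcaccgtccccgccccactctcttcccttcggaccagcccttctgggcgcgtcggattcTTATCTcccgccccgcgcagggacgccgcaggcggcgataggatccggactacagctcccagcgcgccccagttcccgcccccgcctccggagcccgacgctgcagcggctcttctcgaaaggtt
ALAS1 (chr3:52197833-52198082, plus strand): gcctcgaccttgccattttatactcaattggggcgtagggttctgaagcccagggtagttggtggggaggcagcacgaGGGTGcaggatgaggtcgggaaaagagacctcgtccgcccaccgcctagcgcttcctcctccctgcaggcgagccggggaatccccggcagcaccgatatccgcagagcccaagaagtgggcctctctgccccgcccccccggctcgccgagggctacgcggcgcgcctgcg
The ALAS2 window held 1 of the GATA words, beginning 127 bases before the start, and 2 CACCC words. CPOX held 2 GATA words, at 207 and 125 bases, and no CACCC word. ALAS1 held 1 CACCC word and no GATA word. Over the 7 members with a window, ALAS2, ALAD, CPOX and PPOX held a GATA word, against 22.3% of all 35116 promoter windows of this length, and ALAS1, ALAS2, ALAD and PPOX held CACCC, against 54.7%. ALAD and PPOX have 2 windows each and were counted if either held the word. The word TGAGTCA, on either strand, was in the ALAS2 window and in 4.20% of all windows. TGACNNNGC was in those of ALAS2, where it overlaps TGAGTCA, and FECH, and in 10.9% of all windows. These matches describe letters only and say nothing of binding.

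BAZ1B KO cells showed the same directions on maturation, with 8 members higher and HMOX1 lower at D6 than at D0, where 33.2% of all tested genes were higher and 34.5% lower. ALAS2 went from 6948, 9470.0 and 7770.3 to 51327, 60471 and 69705 normalized counts (log2 2.91 ± 0.13) and FECH from 10698, 8891 and 9579.9 to 43527, 43028 and 46183 (log2 2.19 ± 0.06). ALAS1, the slowest to rise in WT, rose by log2 0.81 ± 0.08. HMOX1 had 127, 272 and 225 at D0 and 26.8, 37.1 and 22.0 at D6, a 7.29-fold fall (log2 -2.87 ± 0.31, adjusted p = 2.82e-06). The difference between KO and WT in the change from D0 to D6 was tested as an interaction. None of the 9 members passed, while 1.58% of all tested genes had a more positive KO effect at D6 and 0.893% a more negative one. At an unadjusted p below 0.05, 2 members differed, ALAD and HMOX1 (the latter at log2 -1.21 ± 0.41, adjusted p = 0.154), and DESeq2 also called 0 members at an adjusted p below 0.05. HMOX1 passed when the replicate block paired the days (log2 -1.16, adjusted p = 0.0441), with no filter on low counts, or without KO replicate 1 at D0, and in each of these 1 member was called.

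**Figure D2:**
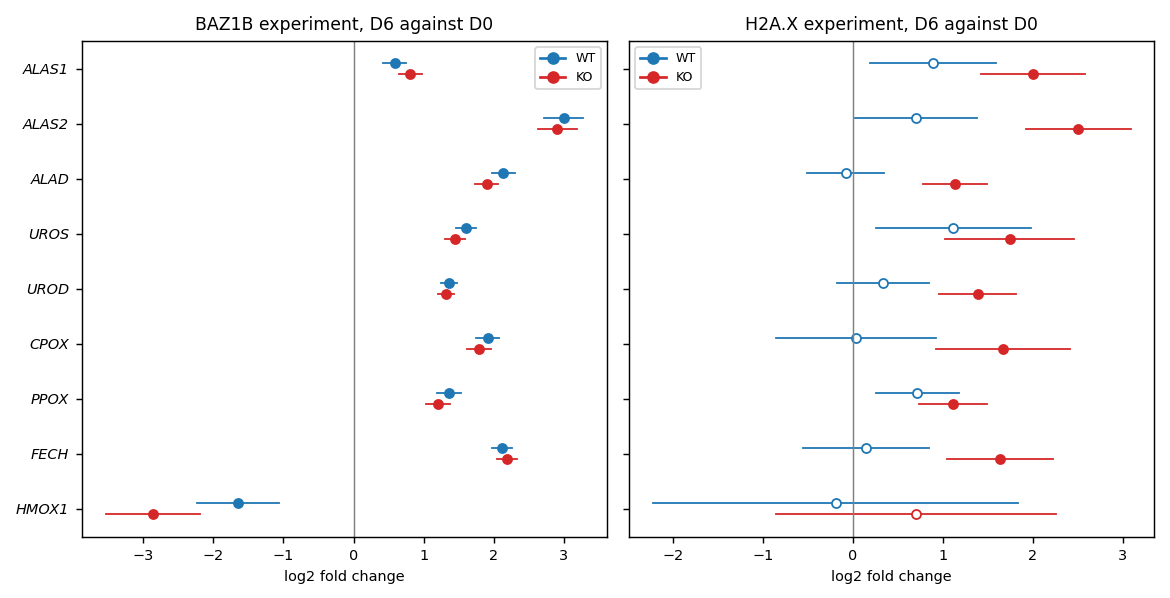
Log2 fold change from D0 to D6 for each enzyme in WT (blue) and KO (red), with the BAZ1B experiment on the left and the H2A.X experiment on the right. Lines are 95% confidence intervals, and filled marks passed at an adjusted p below 0.05. In the H2A.X experiment 8 members passed in KO and 0 in WT.

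Loss of BAZ1B was compared with WT at each day to ask whether the enzymes reach other levels without it. At D0, ALAD was the only member to pass, with 3106, 3167 and 3196 normalized counts in WT and 3908, 4548 and 4304 in KO. It was 1.35-fold higher in KO (log2 0.43 ± 0.07, adjusted p = 0.00478) and passed in all 12 fits that left out 1 library. Over all tested genes 1.25% were higher and 2.64% lower. HMOX1 was spread widely among the KO samples at this day (127, 272 and 225), all below the WT libraries, and did not pass (log2 -0.46 ± 0.26, adjusted p = 0.432). The other 7 members differed by log2 -0.16 to 0.09. Without KO replicate 1 at D0, 2 members passed.

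At D6, 3 members were lower and 1 was higher in BAZ1B KO, where 5.97% of all tested genes were lower and 6.87% higher. HMOX1 showed the largest difference, 124, 76.9 and 71.5 normalized counts in WT and 26.8, 37.1 and 22.0 in KO. It was 3.18-fold lower in KO (log2 -1.67 ± 0.32, adjusted p = 0.00422), the genotypes did not overlap, and it passed in all 12 fits that left out 1 library. In raw reads this is 111, 68 and 71 against 27, 32 and 21.

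The other differences at D6 were small. UROS had 11109, 10730.5 and 12357 in WT and 9106, 9184 and 10585 in KO (log2 -0.24 ± 0.06, adjusted p = 0.0235). UROD had 27380.4, 26790.5 and 30012 and 23092, 25457 and 24724 (log2 -0.20 ± 0.05, adjusted p = 0.0193). ALAS1 was the 1 member that was higher, 1934, 1698 and 1964 against 2411, 2036 and 2506 (log2 0.31 ± 0.08, adjusted p = 0.0154). In these 3 genes no KO library overlapped a WT library, although the folds were only 0.844, 0.870 and 1.24. The same held for PPOX, which did not pass, and the share of all tested genes without overlap was not counted. PPOX (log2 -0.24, adjusted p = 0.0587), CPOX (log2 -0.21, 0.0802), ALAS2 (log2 -0.24, 0.224), ALAD (log2 0.20, 0.0933) and FECH (log2 -0.06, 0.623) did not pass. The count of members that passed was 2 without KO replicate 1 at D6 and 7 without KO replicate 1 at D0. The 14 erythroid markers, none at 0, summed to 37700 to 43200 CPM in WT and 32000 to 37500 in KO at D6, with 5 of 14 lower and 0 higher. The macrophage and monocyte markers summed to 0.0791 to 0.247 in KO, with CSF1R, CD163, MARCO, VSIG4 and ITGAX at 0. The part of these markers in the enzyme differences was not tested.

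**Figure D3:**
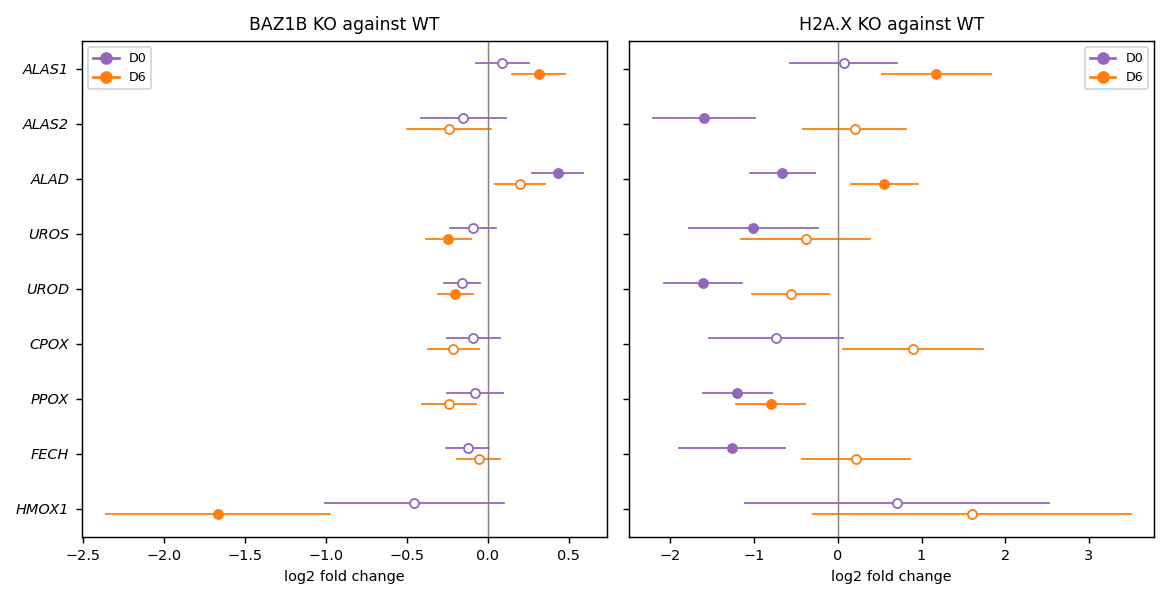
Log2 fold change of KO against WT at D0 (purple) and D6 (orange) for each enzyme, with the BAZ1B experiment on the left and the H2A.X experiment on the right, on axes of different width. Lines are 95% confidence intervals and filled marks passed at an adjusted p below 0.05. HMOX1 at D6 stands apart in BAZ1B KO, and 7 synthesis enzymes lie below 0 at D0 in H2A.X KO, 6 of them with filled marks.

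Before maturation, 6 of the 8 synthesis enzymes were lower without H2A.X than in the 2 WT samples of this experiment. At D0, 6 of the 9 members were lower in KO and 0 higher, where 16.7% of all tested genes were lower and 18.4% higher. The median log2 difference over the members was -1.01, against 0.01 over all tested genes. Per length at D0, ALAS2 was at 194 ± 24.7 CPM per kilobase in H2A.X KO and 587 ± 41.1 in its WT. In WT of the BAZ1B experiment it was at 123 ± 4.39. For UROD these values were 228 ± 29.2, 696 ± 175 and 244 ± 4.37. The experiments were normalized separately, so no test was run between them.

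ALAS2 had 19021 and 21003 normalized counts in the 2 WT libraries and 5710.4, 7382 and 6699 in the 3 KO libraries at D0. It was 3.03-fold lower in KO (log2 -1.6 ± 0.27, adjusted p = 0.0056) and remained lower with the length and GC correction (log2 -1.24, adjusted p = 0.0176). UROD had 11995 and 17191 in WT and 4096, 5285 and 4946 in KO (log2 -1.61 ± 0.21, adjusted p = 0.0025, with the correction log2 -1.02). For both genes, no KO library reached a WT library.

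FECH had 12571 and 13273 and 4012, 5740.4 and 6327 (log2 -1.27 ± 0.29, adjusted p = 0.0109), and with the correction the difference was larger (log2 -1.98). That correction rests on the canonical FECH transcript of 7689 bases. PPOX had 3682 and 4274 and 1688, 1765 and 1743 (log2 -1.20 ± 0.19, adjusted p = 0.00474, corrected -0.73). ALAD had 6995 and 5345 and 3797, 3684 and 4221 (log2 -0.66 ± 0.17, adjusted p = 0.0177, corrected -0.62). These genes did not overlap between genotypes either, ALAD having the smallest difference of the 6.

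UROS had 2769 and 3540.4 and 1383, 1806 and 1509 (log2 -1.01 ± 0.35, adjusted p = 0.0449), a call that was lost with the correction (log2 -0.46, adjusted p = 0.357). CPOX did not pass, with 5579 and 6709 and 2569, 4841 and 3649.6 (log2 -0.74 ± 0.36, adjusted p = 0.132, corrected -0.63). ALAS1 had 494 and 465 and 446, 578 and 487 (log2 0.07 ± 0.29, corrected 0.29), overlapping ranges. The first step was thus lower in KO for its erythroid enzyme, while for ALAS1 no difference was detected. HMOX1 had 71.8 and 85.0 and 140.4, 148 and 94.6 and did not pass (log2 0.70 ± 0.82, adjusted p = 0.518, corrected 1.20). CPOX and HMOX1 also did not overlap between genotypes, although neither passed, and the share of all tested genes without overlap was not counted.

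Of the 10 fits that left out 1 library, UROD passed in 10, ALAS2, FECH and PPOX in 9, ALAD in 6 and UROS in 3. Without WT replicate 2 at D0 only UROD passed (adjusted p = 0.0385), beside 51 genes higher and 26 lower of all tested. The log2 differences of these 6 genes kept their sign in each of the 10 fits. At D0 the erythroid markers summed to 12100 to 16100 CPM in KO, below the 23500 to 32600 of WT. Of these 14 markers 10 were lower and none was at 0. Mast cell and eosinophil markers, of which CLC and FCER1A were at 0 in both genotypes, summed to 104 to 140 in WT and 209 to 419 in KO, with 3 of 5 tested ones higher. Their part in the enzyme differences was not tested.

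At D6 the picture in H2A.X KO was mixed, with 2 members higher and 1 lower, where 22.2% of all tested genes were higher and 20.9% lower. ALAS1 had 979 and 802 in WT and 2993, 1503 and 1543 in KO, 2.26-fold higher (log2 1.18 ± 0.29, adjusted p = 0.0107, with the length and GC correction 1.38). KO replicate 1 was far above the other KO libraries, yet each of these was above both WT libraries. ALAD, lower in KO at D0, was higher at D6, with 5593 and 6059 in WT and 7146, 9921 and 8609 in KO (log2 0.55 ± 0.18, adjusted p = 0.03, corrected 0.54 with adjusted p = 0.0479), and it passed in 7 of the 10 fits that left out 1 library. PPOX was lower, 5554 and 7493 against 3023, 3724 and 4477 (log2 -0.80 ± 0.19, adjusted p = 0.00822), but not with the correction (log2 -0.18, adjusted p = 0.314). Without WT replicate 2 at D6, 0 members passed, and of all tested genes 58 were higher and 94 lower. The RNAs without a poly(A) tail summed to 81.7 to 379 CPM in WT and 10.6 to 24.3 in KO at this day, with 5 of 5 tested ones lower in KO (median log2 -3.87) and RN7SK, RN7SL2 and RPPH1 at 0 in both genotypes, whereas at D0 they summed to 28.9 to 35.9 and 28.6 to 31.4. Mast cell and eosinophil markers summed to 145 to 232 CPM in WT and 3.08 to 13.5 in KO, with 2 of 5 tested ones lower and EPX, CLC and HDC at 0 in both. Erythroid markers overlapped (36900 to 63200 in WT, 42600 to 70700 in KO), with 2 of 14 higher and 2 lower. The part of these in the D6 differences, and in every comparison that holds the WT libraries of D6, was not tested.

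ALAS2 did not pass at D6, with 28292 and 36795 normalized counts in WT and 37467, 51110.5 and 23839.6 in KO (log2 0.20 ± 0.28, corrected 0.64). The KO libraries surrounded the WT ones. CPOX (log2 0.90 ± 0.38, adjusted p = 0.0757, corrected 0.91) and UROD (log2 -0.56 ± 0.21, adjusted p = 0.0507) did not pass either. For UROD, UROS and FECH the sign itself depended on the length and GC correction, going from log2 -0.56 to 0.19, from -0.38 to 0.36 and from 0.22 to -0.58, so no direction is given for them.

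HMOX1 at D6 had 43 and 50 raw reads in WT and 74, 526 and 56 in KO, or 49.1 and 89.5 and 68.0, 499.9 and 54.1 normalized counts. KO replicate 2 alone was high, while the other KO libraries lay within the WT range. The fitted difference (log2 1.6 ± 0.86, adjusted p = 0.153, corrected 2.28) became -0.17 (adjusted p = 0.739) without that library. The same library had the highest count of its group for ALAS2, ALAD, UROS, UROD, CPOX and FECH, and the members took 0.646% of its reads against 0.464% and 0.484% in the other KO libraries at D6. Macrophage and monocyte markers summed to at most 0.165 CPM in these KO libraries, with CD68, CSF1R, CD163, MARCO, VSIG4 and ITGAX at 0.

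**Figure D4:**
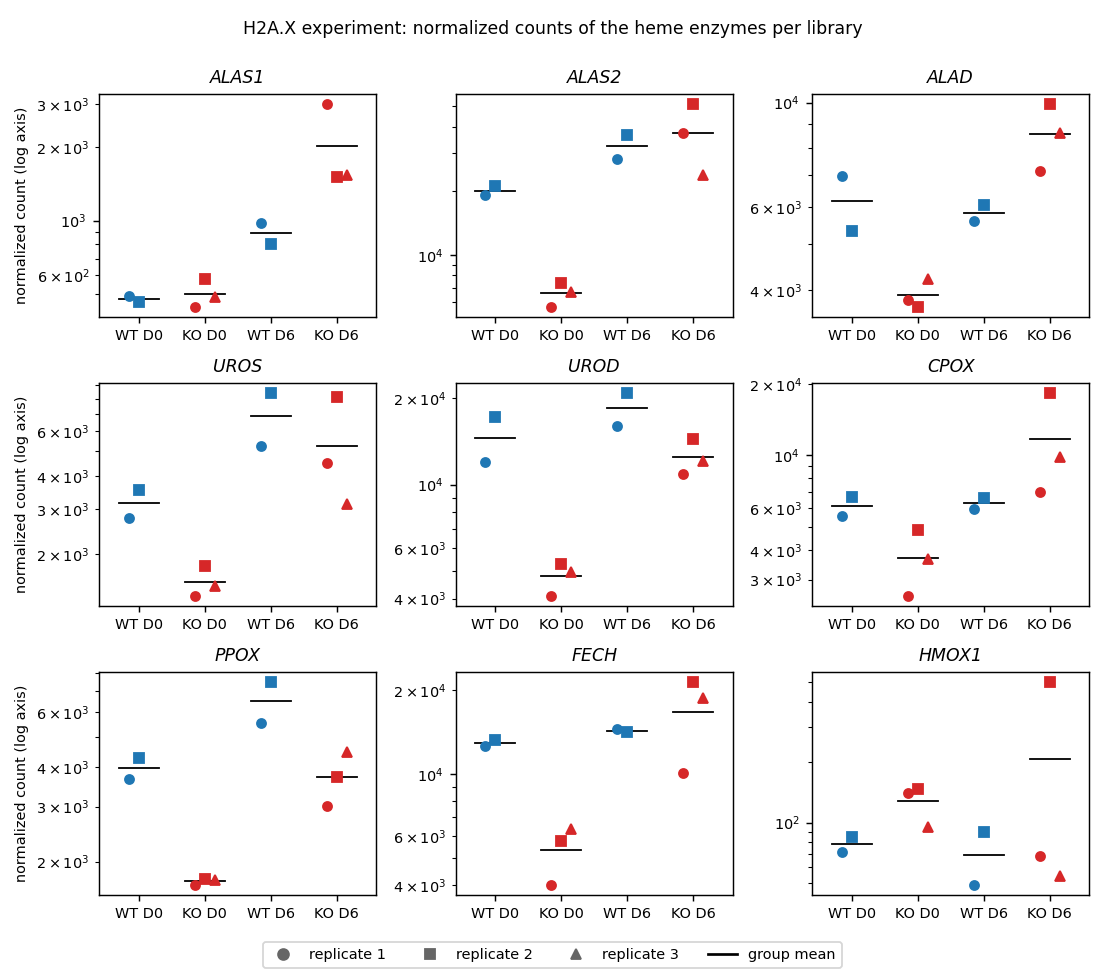
Normalized counts of the 9 enzymes in the 10 libraries of the H2A.X experiment, on log axes that differ between panels, with WT in blue, KO in red, the replicate given by the shape and the group mean by the line. At D0 the KO libraries lie below WT for ALAS2, ALAD, UROS, UROD, CPOX, PPOX and FECH and above WT for HMOX1. Of these, CPOX and HMOX1 did not pass, and the share of all tested genes without overlap was not counted. HMOX1 is high in KO replicate 2 at D6.

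From D0 to D6, H2A.X KO cells raised all 8 synthesis enzymes, where 14.8% of all tested genes were higher and 16.1% lower. The median over the members was log2 1.64, against 0.02 over all tested genes. ALAS2 rose 5.68-fold (log2 2.51 ± 0.26, adjusted p = 0.000181) and ALAS1 4.0-fold (log2 2.0 ± 0.26, adjusted p = 0.000548). The remaining 6 rose by log2 1.11 (PPOX) to 1.74 (UROS). HMOX1 did not pass (log2 0.70 ± 0.70, adjusted p = 0.486), and without both libraries of KO replicate 2 its value was log2 -0.94 (adjusted p = 0.152). With the length and GC correction 8 members passed too, and the 8 synthesis enzymes rose by log2 1.08 (PPOX) to 2.48 (ALAS2).

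In the 2 WT samples of the same experiment 0 members passed from D0 to D6, where 0.839% of all tested genes were higher and 1.16% lower. At an unadjusted p below 0.05, 4 members were higher, DESeq2 called 1 member (PPOX, log2 0.70, adjusted p = 0.0306), and edgeR called 1 without KO replicate 1 at D6. The replicate block called 2, UROS (log2 1.09, adjusted p = 0.031) and PPOX (log2 0.70, adjusted p = 0.0338), and the length and GC correction 0. UROS (log2 1.11 ± 0.39), ALAS1 (log2 0.89 ± 0.31), PPOX (log2 0.71 ± 0.21) and ALAS2 (log2 0.70 ± 0.30) had D6 libraries above both D0 libraries. So had FECH, with a difference of only log2 0.15 ± 0.32. This order of libraries is not read as a rise, since its share over all tested genes was not counted. ALAD (log2 -0.08 ± 0.19) and CPOX (log2 0.03 ± 0.40) overlapped between the days. Per length at D0, ALAS2 was at 587 ± 41.1 CPM per kilobase in these WT cells, against 123 ± 4.39 in WT of the BAZ1B experiment. ALAD was at 112 ± 21.2 against 26.8 ± 0.391. ALAS1 (11.5 ± 0.490 against 13.9 ± 0.159) and HMOX1 (2.87 ± 0.341 against 4.88 ± 0.182) were not higher here. The part of these D0 levels in the change to D6 was not tested. At D6 the values of ALAS2 were 955 ± 176 and 981 ± 109.7. Both tables were normalized separately, so these levels are set side by side without a test. Erythroid markers summed to 23500 to 32600 CPM in WT at D0 here and to 6470 to 7210 there.

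In the H2A.X experiment the 8 synthesis enzymes had a more positive KO effect at D6 than at D0, and ALAD alone passed the test of this difference (log2 1.22 ± 0.25, adjusted p = 0.0488), where 0.302% of all tested genes were higher and 1.04% lower. HMOX1 was positive too (log2 0.89 ± 1.15), but at log2 -0.75 without both libraries of KO replicate 2. ALAS2 did not pass (log2 1.80 ± 0.39, adjusted p = 0.057), and CPOX (log2 1.64 ± 0.52) and FECH (log2 1.49 ± 0.41) had large values with wide errors. When D0 and D6 libraries of the same number were paired by a replicate block, 5 members passed, with ALAS2 at log2 1.76 (adjusted p = 0.0149), CPOX at 1.56 (adjusted p = 0.00655), FECH at 1.45 (adjusted p = 0.00872) and UROD at 1.04 (adjusted p = 0.0133) beside ALAD. DESeq2 likewise called 5. With the length and GC correction 2 passed, ALAD (adjusted p = 0.0398) and UROD (log2 1.21, adjusted p = 0.0291). With edgeR and no pairing, the count was 0 in 8 of the 10 fits that left out 1 library, namely any D0 library, either WT library at D6 or KO replicate 2 at D6, and 2 in the fits without KO replicate 1 or KO replicate 3 at D6.

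The balance of the first step is described by the ratio of ALAS2 to ALAS1, both per length. In the BAZ1B experiment the ratio at D0 was 8.65 to 9.07 in WT against 6.44 to 9.17 in KO, and at D6 43.6 to 50.2 in WT against 26.1 to 36.4 in KO. It rose on maturation in both genotypes, and at D6 no KO library reached a WT library. At that day ALAS2 itself overlapped between genotypes and did not pass by edgeR (adjusted p = 0.224), while ALAS1 passed as higher in KO. In the H2A.X experiment the D0 ratio was 47.1 and 55.2 in WT against 15.6 to 16.9 in KO, and the D6 ratio 35.4 and 56.2 in WT against 15.3 to 41.6 in KO. There the genotypes stood apart at D0 and overlapped at D6, where KO replicate 2 gave the highest KO value. No test was run on the ratio.

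**Figure D5:**
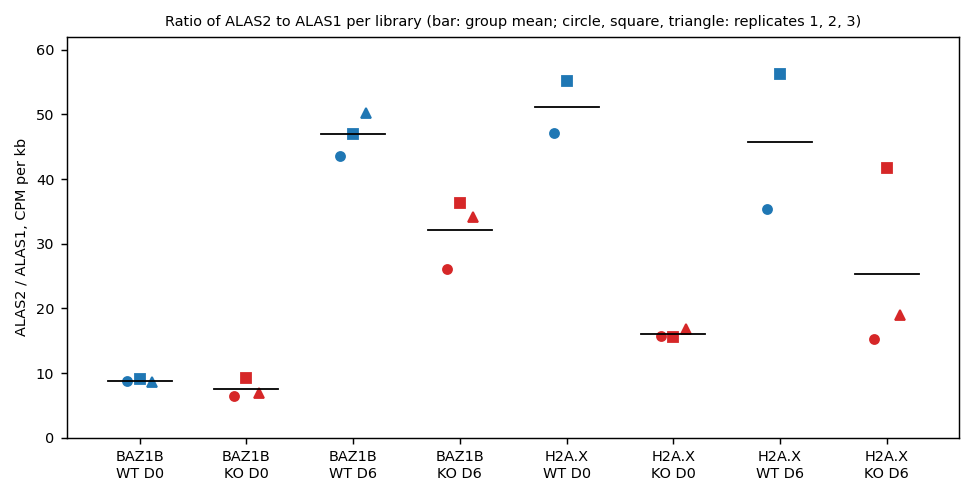
Ratio of ALAS2 to ALAS1 in CPM per kilobase for each of the 22 libraries, with WT in blue and KO in red and the group mean as a line. In the BAZ1B experiment KO libraries lie below WT at D6, and in the H2A.X experiment at D0.

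Across the 12 libraries of the BAZ1B experiment, which differ mainly by day, the log2 levels of the 8 synthesis enzymes went together (Pearson's r from 0.875 to 0.997 over 28 pairs), and HMOX1 was opposed to each of them (r from -0.946 to -0.788). Over the 10 libraries of the H2A.X experiment the synthesis enzymes were again positively related (r from 0.326 to 0.959), while HMOX1 was not clearly related to them (r from -0.298 to 0.343). These values describe libraries that share groups and carry no test. Among 10057 other genes, those most like ALAS2 over the 12 libraries were MOB1B, SPTB and FAM83D (each r = 0.998), with r of 0.621, 0.296 and 0.897 in the 10 H2A.X libraries. Most like ALAS1 were DUT (0.990), BTRC (0.988) and GXYLT1 (0.984), with -0.128, 0.385 and 0.562. Most like HMOX1 were SELENOW (0.986), MAGEF1 (0.982) and ACP6 (0.978), with -0.297, 0.0115 and -0.0476, near 0 or negative.

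Further genes of the pathway were taken from lists of transporters and iron-sulfur or iron insertion factors (16 genes, all tested), of heme breakdown, export and uptake (7 of 8 tested) and of heme and iron sensing regulators (11 of 12 tested). In WT cells of the BAZ1B experiment 12 of 16 transport and insertion genes rose from D0 to D6 and 2 fell, where 33.5% of all tested genes rose and 35.4% fell. The mitochondrial carriers SLC25A39 (log2 3.01 ± 0.12) and SLC25A37, which is mitoferrin (log2 2.90 ± 0.13), and TSPO2 (log2 2.20 ± 0.19) rose the most. In KO 10 rose and 2 fell (33.2% and 34.5% of all tested genes), with SLC25A39 at log2 3.37 ± 0.12, SLC25A37 at 2.55 ± 0.13 and TSPO2 at 2.04 ± 0.19. In H2A.X KO 8 rose and 0 fell (14.8% and 16.1% of all tested genes), led by SLC25A39 (log2 2.78 ± 0.24), SLC25A37 (log2 2.42 ± 0.28) and TSPO2 (log2 1.63 ± 0.43). In WT of the H2A.X experiment 0 of the 16 passed, while DESeq2 called 2 higher and the replicate block 3.

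Of the breakdown, export and uptake genes, 4 of 7 rose and 3 fell in WT of the BAZ1B experiment, beside the 33.5% and 35.4% of all tested genes. The exporter ABCG2 (log2 3.66 ± 0.42) and the biliverdin reductase BLVRB (log2 2.21 ± 0.05) rose, and HMOX2, the constitutive heme oxygenase, fell (log2 -1.49 ± 0.09). In BAZ1B KO 4 rose and 1 fell, beside 33.2% and 34.5%, with ABCG2 at log2 3.87 ± 0.45, BLVRB at 2.16 ± 0.05 and HMOX2 at -1.48 ± 0.09. In H2A.X KO 4 rose and 1 fell, beside 14.8% and 16.1%, with ABCG2 at log2 2.51 ± 0.55, BLVRB at 1.63 ± 0.24 and HMOX2 at -1.58 ± 0.26. In WT there 0 passed, while the replicate block called 3 higher. HMOX2 and HMOX1 thus both fell in both genotypes of the BAZ1B experiment.

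Of the 11 regulators tested, 9 rose and 2 fell in WT of the BAZ1B experiment, where 33.5% and 35.4% of all tested genes did, and 8 rose and 2 fell in KO, where 33.2% and 34.5% did. NFE2 (log2 1.43 ± 0.06 in WT and 1.18 ± 0.06 in KO) and GATA1 (log2 1.18 ± 0.05 and 1.12 ± 0.05), both erythroid transcription factors, led in both genotypes, followed in WT by EIF2AK1, the heme-regulated translation kinase (log2 1.04 ± 0.06), and in KO by KLF1 (log2 0.96 ± 0.05). In H2A.X KO 7 rose and 1 fell, beside 14.8% and 16.1%, led by NFE2 (log2 1.44 ± 0.22), EIF2AK1 (log2 1.07 ± 0.21) and BACH1, a heme-binding repressor of HMOX1 (log2 0.98 ± 0.27). In WT there 0 passed, while the replicate block called 1 higher and DESeq2 called 1 lower.

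Between genotypes, H2A.X KO at D0 had 8 of 16 transport and insertion genes lower and 0 higher, where 16.7% of all tested genes were lower and 18.4% higher, led by SLC25A39 (log2 -2.08 ± 0.25), GLRX5, a glutaredoxin of iron-sulfur cluster assembly (log2 -1.46 ± 0.29), and SLC25A37 (log2 -1.19 ± 0.30). The biliverdin reductases BLVRB (log2 -1.75 ± 0.26) and BLVRA (log2 -0.93 ± 0.21) were lower, the only 2 of 7 in their list. Among the 11 regulators 3 were lower, GATA1 (log2 -1.06 ± 0.15), NFE2 (log2 -1.03 ± 0.24) and KLF1 (log2 -0.94 ± 0.20), and 1 was higher. With the length and GC correction 6, 1 and 1 genes of these lists were lower, and BLVRA, NFE2 and KLF1 no longer passed (log2 -0.31, -0.54 and -0.29). At D6 of this experiment 2 transport genes of 16 were higher and 4 lower, where 22.2% of all tested genes were higher and 20.9% lower, among them SFXN4 (log2 -1.18 ± 0.33) and, higher, ABCB10 (log2 0.95 ± 0.24). HMOX2 (log2 -1.17 ± 0.28), BLVRB (log2 -0.90 ± 0.26) and BLVRA (log2 -0.86 ± 0.21) passed below WT without the correction, with 0 of 7 higher. Of the 11 regulators 4 were higher, among them BACH1 (log2 1.18 ± 0.31), IREB2 (log2 1.17 ± 0.18) and EIF2AK1 (log2 0.96 ± 0.23), and 1 was lower. Of the 8 genes named here for D6, 0 passed with the correction, and BLVRB changed sign (log2 0.29), so no direction is given for it. Other genes of the lists did pass with it, 2 of 16 transport genes lower and 1 of 11 regulators higher. Of all 13236 tested genes, 1516 were then lower and 1273 higher.

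BAZ1B KO differed little in these lists. At D0 only SLC25A39 passed (log2 -0.70 ± 0.12, adjusted p = 0.00429), lower in KO as were 2.64% of all tested genes. At D6 NFS1, the cysteine desulfurase (log2 0.16 ± 0.05), and BLVRA (log2 0.29 ± 0.05) were higher, and ABCB10 (log2 -0.15 ± 0.04) and MAFG, a partner of BACH1 (log2 -0.37 ± 0.05, adjusted p = 0.00062), were lower, where 6.87% of all tested genes were higher and 5.97% lower. In this experiment MAFG was also the only gene of the lists with a KO effect that differed between the days (log2 -0.38 ± 0.07, adjusted p = 0.0207).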

How the data were processed

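RNA-Seq was measured in 22 libraries of HUDEP-2 cells. The authors deposited raw read counts per gene name, not normalized, in a table for each experiment, and the column of each library was used. Per the labels' processing notes, STAR 2.7.0f, Subread 1.6.4, featureCounts and hg38 were used. The labels name an unstranded library kit and the paper's methods a stranded one. The strand setting of counting is not given in the sources used here.

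The counts were filtered with filterByExpr (minimum count 10, minimum total 15) in edgeR 4.0.16 (R 4.3.3), normalized by TMM and fitted by the quasi-likelihood method with 1 coefficient per genotype and day on all libraries of an experiment. Tests were two-sided, with Benjamini-Hochberg adjustment over all genes tested. The contrasts were KO with WT on each day, D6 with D0 in each genotype, and the KO effect of one day with that of the other. Standard errors were taken from the F statistic, and the fit was tested on simulated data.

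The members and lists were chosen with earlier results of these data known. The genes named are the 9 members, the 3 largest changes past the test in each pathway list and comparison, the 3 genes most like ALAS1, ALAS2 and HMOX1 among those with a mean of at least 50 normalized counts in both experiments, both targeted genes, and markers. A gene that this rule names in 1 comparison is not reported here. The labels number the replicates without saying that they were separate cultures. For the H2A.X experiment the paper states that WT and KO subclones were sequenced, without tying a subclone to a number. Spread within a genotype can thus hold differences between subclones, which were not tested. Where the replicates were not separate cultures, p-values measure only the spread between these samples.

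Same-numbered D0 and D6 libraries deviated together in H2A.X KO (correlation of deviations from the group means 0.310 to 0.606). They also did in BAZ1B KO replicates 1 and 2 (0.501 and 0.579), so these numbers may pair the days, which the labels do not state. BAZ1B KO replicate 3 (0.106) and BAZ1B WT (-0.0471 to 0.206) showed little of this, and H2A.X WT has only 2 pairs (each 0.544). The fit without a replicate block, which gave the p-values unless a block is named, treated D0 and D6 libraries as independent.

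Length and GC content came from canonical transcripts of GENCODE 44, for 90.8% of the genes tested in the H2A.X experiment and 89.4% in the other. Of 59087 names, 36434 matched by name and 759 by an older name. Alternatives were DESeq2 1.42.0, RLE size factors, no globin genes, no filter on low counts, a length and GC correction by offsets, a replicate block, fits of the compared libraries alone, each library left out, and, chosen after seeing the data, both libraries of H2A.X KO replicate 2 left out.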

Additional observations from a re-analysis of the deposited data

Results flagged for a closer look

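ALAD, the enzyme that makes porphobilinogen, was by edgeR without pairing the only member for which the effect of H2A.X loss differed between D0 and D6 by the test of the difference itself, whereas DESeq2 and the replicate block each called 5. Its KO effect was log2 1.22 more positive at D6 than at D0 (adjusted p = 0.0488, edgeR). All 3 KO libraries lay below both WT libraries at D0 and above both at D6. This order restates the libraries of the test and was not counted over all tested genes. The difference passed in 2 of the 10 fits that left out 1 library, with log2 values from 1.02 to 1.41. Without both libraries of KO replicate 2 it was log2 1.06 (adjusted p = 0.178).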

How the results depend on the processing

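The rise of 8 members in H2A.X KO, and the 9 calls in each genotype of the BAZ1B experiment on maturation, gave counts within 1.5 times under every alternative run. The number of members passing elsewhere moved, and the cause was not tested. DESeq2 gave 5 for H2A.X KO against WT at D6 (3 with edgeR), 1 for H2A.X WT at D6 against D0 (0) and 5 for the difference of H2A.X KO effects between the days (1). With no filter on low counts these were 5, 2 and 6, and BAZ1B KO against WT gave 2 at D0 (1) and 8 at D6 (4) and the difference of BAZ1B KO effects 1 (0). The length and GC correction gave 2 for the difference of H2A.X KO effects. The replicate block gave 5 for KO against WT at D6, 2 in WT and 5 for the difference in the H2A.X experiment and 1 for the difference in the BAZ1B experiment (HMOX1, log2 -1.16, adjusted p = 0.0441), and with the correction added 5, 1, 5 and 1. For KO against WT the samples share only a number. The block changed no call of a member in D6 against D0 of either KO. FECH passed as lower in H2A.X KO at D6 only with correction and block (log2 -0.85, adjusted p = 0.0203), and BLVRB there turned to log2 0.29 with the correction and 0.31 with both. Leaving out 1 library gave 1 to 7 members for H2A.X KO against WT at D0, 0 to 4 at D6, 0 to 1 for WT at D6 against D0 and 0 to 2 for the difference, and in the BAZ1B experiment 1 to 2 at D0, 2 to 7 at D6 and 0 to 1 for the difference. Without both libraries of H2A.X KO replicate 2 the difference gave 0.

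Among all tested genes, H2A.X WT at D6 against D0 had 111 higher and 154 lower, but 463 and 604 by DESeq2, 597 and 674 without the filter, and 583 and 544 with the block. The difference of H2A.X KO effects had 40 and 137, but 281 and 399, 456 and 551, and 211 and 341, and 83 and 183 with the correction. The correction lowered H2A.X KO against WT from 2434 and 2217 to 1400 and 1279 at D0 and from 2940 and 2761 to 1273 and 1516 at D6. The difference of BAZ1B KO effects had 219 and 124, but 443 and 257 by DESeq2, 608 and 379 without the filter and 426 and 292 with the block, and BAZ1B KO against WT at D0 had 173 and 366, but 478 and 723 without the filter. Of the alternatives for single log2 values of members, 1619 stayed on the same side of the threshold, 72 gained and 45 lost it, and FECH reversed in 1. Sign changes of values that passed in neither fit are counted among the 1619, HMOX1 in H2A.X KO at D6 without KO replicate 2 being such a case.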
